A study of Mus musculus with 5 samples.

Results

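Class I molecules of the major histocompatibility complex show peptides cut from the cell's own proteins to T cells and natural killer cells. Proteasomes cut the proteins, the TAP transporter carries the peptides into the endoplasmic reticulum, and chaperones there load them onto a heavy chain paired with β2-microglobulin. The genes of this route that were examined are the immunoproteasome subunits Psmb8, Psmb9 and Psmb10, the proteasome activator subunit Psme1, the transporter genes Tap1 and Tap2, the loading chaperone Tapbp (tapasin), the peptide trimmer Erap1, the light chain B2m and the transactivator Nlrc5. The genes were taken by symbol. All 10 were listed in every library, among 17923 genes listed in at least 1 library.

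The RNA came from immortalized mouse thyroid tumor lines, and the comparison addresses what loss of β-catenin does to expression in tumor cells driven by BrafV600E. All 5 libraries carry BrafV600E. The labels describe the 2 BVE-Ctnnb1wt libraries (here wt) as thyroid cancer with BRAFV600E alone. Those of the 3 BVE-Ctnnb1null libraries (here null) add a deletion of CTNNB1. Both wt libraries were of the line BVE, labelled passage 20. Their labels put thyroid-stimulating hormone (TSH) in the culture of replicate 2 and not in that of replicate 1. Null replicate 1 was line BVECTN_4 at passage 8 without TSH, null replicate 2 was line BVECTN_4A at passage 11, and null replicate 3 was line BVECTN_5 at passage 7, the latter pair with no TSH statement. The protocol text instead gives about 25 passages for wt and 20 for null cells, and 4 mU/mL bovine TSH in the medium. Because the wt libraries share a line name, their spread covers cultures of that line only. The effects of genotype, of passage and of the individual line cannot be told apart. The age of the mice and the driver of recombination are not given in the sources used here. Libraries held between 29360002 and 30713079 estimated read counts, so that raw depth differed little between them. The TMM factors, by which the main test rescales these totals, were 0.842 and 0.735 in wt replicates 1 and 2. In null replicates 1, 2 and 3 they were 1.09, 1.22 and 1.22, so FPKM and TMM-scaled counts can differ in direction.

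The deleted gene was examined first. Ctnnb1, which encodes β-catenin, was at 59.3 and 73.8 FPKM (fragments scaled to transcript length and library total) in wt replicates 1 and 2. It was at 125, 196 and 118 FPKM in null replicates 1, 2 and 3. Each null library was thus above both wt libraries in FPKM, as were 35.9% of all genes tested, and no lower total of this RNA was seen. TMM-scaled counts overlapped (log2 fold change 0.55, SE 0.44, adjusted p = 0.517 in edgeR's quasi-likelihood test). The values per transcript do not separate the deleted exons, so the deletion was not tested by them. Every direction given for the libraries labelled BVE-Ctnnb1null rests on the labels.

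The labelled cell type was compared with its markers. Of 10 thyroid follicular genes, Tshr, Slc26a4, Foxe1 and Dio1 were at 0.12 FPKM or lower in all 5 libraries, and Tg was at 0.86 FPKM or lower. Slc5a5, the iodide transporter, was at 1.03 and 0.36 FPKM in wt and at 6.48, 0.05 and 0.14 FPKM in null, and Hhex was at 3.71 and 4.14 FPKM in wt and at 1.08, 20.2 and 1.38 FPKM in null. Pax8, a thyroid transcription factor, was at 0.40 and 0.17 FPKM in the wt libraries and at 18.2, 12.8 and 2.56 FPKM in null replicates 1, 2 and 3. Nkx2-1 was at 9.21 and 15.0 FPKM in wt and at 9.26, 34.8 and 0.26 FPKM in null. The null lines also stood apart from each other. Over 6 epithelial markers the summed FPKM was 1073 and 1742 in wt replicates 1 and 2 and 12070, 705.5 and 1204 in null replicates 1, 2 and 3. Krt7 was the most abundant of them in null replicates 1 and 3, Krt8 in both wt libraries and Krt18 in null replicate 2. Cdh1, an epithelial adhesion gene, was at 1.94 and 1.62 FPKM in wt and at 136, 0 and 20.9 FPKM in null, whereas the keratin gene Krt8 was at 634 and 1104 FPKM in wt and at 1798, 230 and 201 FPKM in null. Null replicate 2 thus lacked Cdh1 and Epcam but not the keratins. Over 9 fibroblast markers the sums were 1768 and 3661 in wt and 86.7, 3012 and 2713 in null, most of it from Vim. Without Vim, a sum added after seeing the data, they were 290 and 255 in wt and 1.57, 148 and 1312 in null, highest in null replicate 3 and lowest in null replicate 1. Null replicate 1 had Col3a1 and Pdgfrb at 0, and null replicate 3 had the highest value of 7 of the 9 markers, Col1a1 at 570 FPKM among them. Dcn and Thy1 were at 84.7 and 88.5 FPKM in null replicate 3 and at 0.24 FPKM or lower in the others. Over 16 leukocyte markers the summed FPKM was 15.5, 19.0, 68.8, 2.06 and 59.2 in wt replicates 1 and 2 and null replicates 1, 2 and 3, with Cd68 the most abundant. The defining leukocyte genes Ptprc, Cd3e, Cd4, Ncr1 and Adgre1 were at 0 in every library. Of the 6 leukocyte markers tested, H2-Ab1, a class II gene, and Cd79a were lower in every null library at an unadjusted edgeR p under 0.05, beside 6.07% of all genes. H2-Ab1 had 90 and 49 counts in wt and 0, 2 and 18 in null. Cd79a had 31 and 24 counts in wt and 7, 1 and 1 in null. Both thus passed the filter on low counts through wt, the group in which they were higher, so their count decides nothing. H2-Ab1 was at 2.49 and 1.34 FPKM in wt and at 0, 0.06 and 0.52 FPKM in null, and Cd79a was at 0.77 and 0.59 FPKM in wt and at 0.18, 0.03 and 0.03 FPKM in null. Their part in the results below was not tested. In bulk RNA, fewer cells of a type and less RNA per cell cannot be told apart.

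Tap1 and Psmb9 are neighbors that are read in opposite directions from a shared stretch of DNA, and their levels are compared below. Sequence before the start site of Tap1 is printed for this reason, and that of B2m because it was the most abundant of the 10 genes. The windows are from RefSeq (GRCm38.p6) and run 5′ to 3′ over the 250 bases before each start site. Capitals mark matches, on either strand, to a Y box (CCAAT), a CRE core (TGACG) or the core of an interferon-stimulated response element (ISRE, GAAANNGAA).
Tap1 (chr17:34187306-34187555, plus strand): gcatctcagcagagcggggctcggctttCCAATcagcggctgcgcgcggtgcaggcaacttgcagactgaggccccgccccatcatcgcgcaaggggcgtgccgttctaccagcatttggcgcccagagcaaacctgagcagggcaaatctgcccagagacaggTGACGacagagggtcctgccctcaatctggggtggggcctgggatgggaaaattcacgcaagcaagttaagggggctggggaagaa
B2m (chr2:122147437-122147686, plus strand): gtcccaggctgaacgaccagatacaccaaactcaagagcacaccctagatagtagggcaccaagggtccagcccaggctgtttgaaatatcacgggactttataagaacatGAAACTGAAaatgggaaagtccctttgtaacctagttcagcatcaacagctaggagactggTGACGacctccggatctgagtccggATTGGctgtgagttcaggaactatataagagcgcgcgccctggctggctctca

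The start sites of Tap1 and Psmb9 lie 226 bases apart on chromosome 17, at 34187556 and 34187330. The capitals in the Tap1 window, a Y box 222 bases and a CRE core 86 bases before the start site, are the same letters that the Psmb9 window holds on the other strand. The B2m window holds an ISRE core at 139, a CRE core at 78 and a Y box at 53 bases before the start site. Windows of 8 of the 10 genes were in the table, here with 50 further bases after the start site. In these 300-base windows, Erap1 held 2 overlapping ISRE cores, Psme1 held 1, Psmb8 held 1 GAS match (TTCNNNGAA), and Tapbp held 2 Y boxes. Psmb10 held none of the motifs searched, which included the NF-κB letters GGGNNTTCC. Among 32851 promoter windows of this length, 37.4% held a Y box, 20.8% a CRE core, 8.56% an ISRE core, 8.30% a GAS match and 5.82% the NF-κB letters. A match is a description of sequence and not a binding site.

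Across the 10 genes, the immunoproteasome subunits Psmb9 and Psmb10, the activator subunit Psme1 and the transporter subunit Tap2 were lower in every null library than in both wt libraries. Psmb8, Tap1, Tapbp, Erap1 and B2m overlapped between the groups. Nlrc5 was above both wt libraries in every null library, at a level of few counts. On FPKM, 7.22% of the 13240 genes tested lay below both wt libraries in all null libraries, against these 4 of 10 genes, and 35.9% lay above, against 1 of 10. On counts scaled to library totals adjusted by TMM factors (TMM CPM), the same 4 and 1 of the 10 genes did not overlap, beside 17.3% and 22.6% of all genes. Psmb9 passed the filter on low counts through wt and Nlrc5 through null, the group in which each was higher. Their places in these counts therefore decide nothing.

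**Figure D1:**
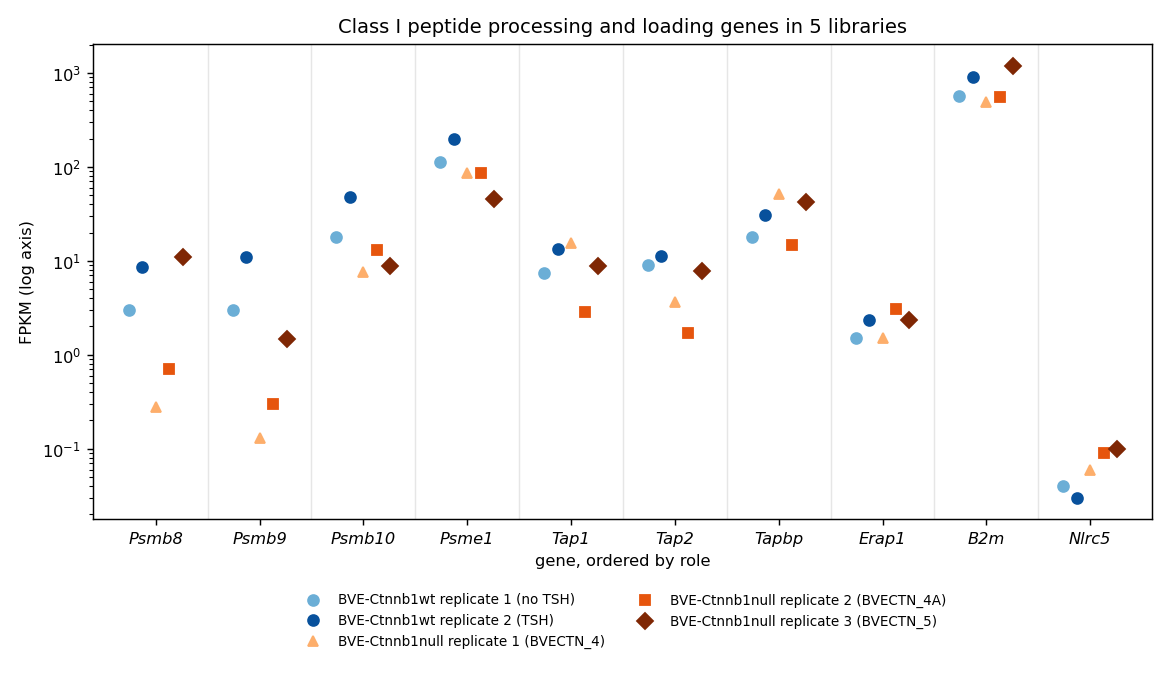
FPKM of the 10 genes (log axis) in each of the 5 libraries, 1 point per library. Circles are wt, other symbols null libraries; Psmb9, Psmb10, Psme1 and Tap2 have all null points below both wt points, and Psmb8 spans 0.28 to 11.03 FPKM among the null libraries.

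Psmb9 encodes β1i, which replaces the catalytic subunit of Psmb6 in the immunoproteasome. It was at 2.99 and 10.9 FPKM in wt replicates 1 and 2 (72 and 266 counts). Null replicates 1, 2 and 3 were at 0.13, 0.30 and 1.47 FPKM, which rested on 3, 7 and 34 counts. The highest null library remained below the lower wt library. The wt mean of 6.97 ± 5.62 FPKM (SD, n = 2) was 11-fold above the null mean of 0.633 ± 0.730 (SD, n = 3). The log2 fold change was -4.13 (SE 1.23) with an adjusted p of 0.194 in edgeR. It was -2.82 without wt replicate 2 and -5.65 without null replicate 3. Only 1 null library reached 10 counts, so Psmb9 passed the filter on low counts through wt, the group in which it was higher.

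Psmb10 encodes β2i, the counterpart of Psmb7. Its FPKM was 17.9 and 47.6 in wt replicates 1 and 2. In null replicates 1, 2 and 3 it was 7.63, 12.9 and 8.75. The null lines lay close together, all under the lower wt value, while the wt libraries differed 2.66-fold. The mean was 32.7 ± 21.0 (SD, n = 2) against 9.77 ± 2.79 FPKM (SD, n = 3), 3.35-fold higher in wt (log2 fold change -2.39, SE 0.60, adjusted p = 0.189 in edgeR). Without wt replicate 2 the log2 fold change was -1.46, and without wt replicate 1 it was -3.05.

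Psmb8 encodes β5i, the counterpart of Psmb5, and lies next to Tap1 and Tap2 in the class II region on chromosome 17. It was at 2.96 and 8.53 FPKM in the wt libraries. In null replicates 1 and 2 it was at 0.28 and 0.70 FPKM, and in null replicate 3 at 11.03 FPKM. The groups therefore overlapped, with the lowest and the highest FPKM both in libraries labelled null. On TMM CPM they overlapped too, but wt replicate 2 was highest, at 14.2 beside 11.03 in null replicate 3. The log2 fold change was -1.20 (SE 1.46, adjusted p = 0.674 in edgeR), and it ranged from -4.22 without null replicate 3 to -0.16 without wt replicate 2. Null replicate 3 was also the library with the highest FPKM of 7 of the 9 fibroblast markers, and the part of fibroblast-like expression in the Psmb8 value was not tested.

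Psme1 encodes PA28α, part of the activator cap that binds the ends of the 20S proteasome. It was at 112 and 200.02 FPKM in the wt libraries. The null libraries were at 85.1, 86.8 and 45.8 FPKM, each below both wt values. Means were 156 ± 62.3 (SD, n = 2) and 72.6 ± 23.2 FPKM (SD, n = 3), a 2.15-fold difference (log2 fold change -1.71, SE 0.53, adjusted p = 0.201 in edgeR).

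Tap1 and Tap2 encode the partner chains of the peptide transporter, and the pair ranked the libraries differently. Tap2 was at 8.99 and 11.3 FPKM in wt and at 3.61, 1.71 and 7.83 FPKM in null replicates 1, 2 and 3. Every null value was below both wt values, null replicate 3 by the smallest margin (log2 fold change -1.81, SE 0.70, adjusted p = 0.246 in edgeR). Tap1 was at 7.35 and 13.5 FPKM in wt and at 15.4, 2.84 and 8.70 FPKM in null. Its FPKM was highest in null replicate 1 and lowest in null replicate 2, so the groups overlapped. On TMM CPM wt replicate 2 was highest, at 54.8 beside 42.4 in null replicate 1, with null replicate 2 again lowest (log2 fold change -0.78, SE 0.78, adjusted p = 0.604 in edgeR). Without wt replicate 2 the log2 fold change was -0.25, and without null replicate 1 it was -1.56.

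Tapbp, whose product tapasin bridges TAP and the empty heavy chain, was at 18.1 and 30.5 FPKM in wt. It was at 51.6, 14.8 and 42.3 FPKM in null replicates 1, 2 and 3, on both sides of the wt values. The log2 fold change was -0.01 (SE 0.66, adjusted p = 0.995 in edgeR) and 0.44 on log2(FPKM + 0.1). Erap1, an aminopeptidase that shortens peptides to fit the groove, was at 1.52 and 2.34 FPKM in wt and at 1.52, 3.09 and 2.36 FPKM in null. Its log2 fold change was -0.36 (SE 0.60, adjusted p = 0.772 in edgeR) and 0.23 on log2(FPKM + 0.1). The sign of these small values turned with the scaling, while both genes lay below the median of all genes on all 3 scales used.

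B2m, the light chain of every class I molecule, was the most abundant of the 10 genes in each library. It was at 573 and 897 FPKM in wt and at 493, 559 and 1195 FPKM in null. The wt FPKM lay within the null range, with null replicate 3 highest, whereas on TMM CPM wt replicate 2 was highest, at 1031 beside 827 in null replicate 3 (log2 fold change -0.60, SE 0.53, adjusted p = 0.558 in edgeR). On log2(FPKM + 0.1) the difference was -0.05. Without wt replicate 2 its log2 fold change was -0.19 and without null replicate 3 -1.11. Nlrc5, which drives class I genes from their promoters, was the lowest of the 10 in each library. It was at 0.04 and 0.03 FPKM in wt and at 0.06, 0.09 and 0.10 FPKM in null, from 8, 6, 13, 19 and 20 counts. Only its null libraries reached 10 counts, so it passed the filter on low counts through the group in which it was higher (log2 fold change 0.77, SE 0.99, adjusted p = 0.695 in edgeR). In order of FPKM, B2m was followed by Psme1 in all 5 libraries, and Tapbp or Psmb10 came next.

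**Figure D2:**
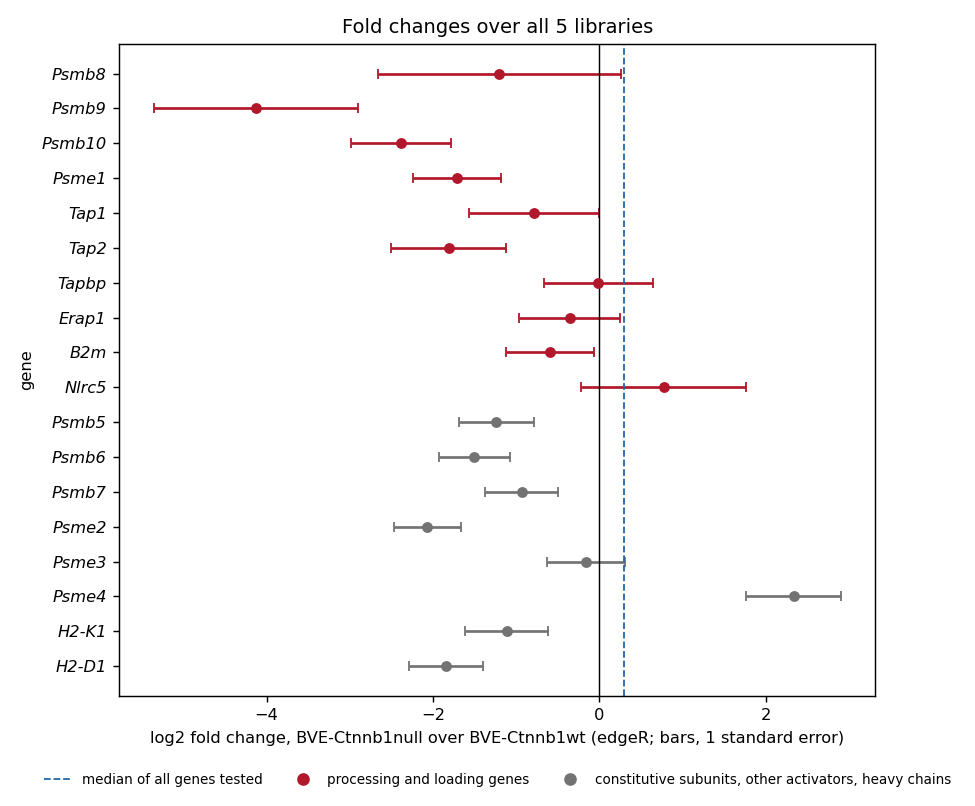
Log2 fold change of null over wt libraries from edgeR, with bars of 1 SE, for the 10 genes (red) and for the constitutive catalytic subunits, other activators and heavy chains (grey); the solid line is 0 and the dashed line the median of all genes tested, 0.29. Of the red points only Nlrc5 lies to the right of the dashed line, and Tapbp lies on 0.

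With edgeR's quasi-likelihood test over 13240 genes, none of the 10 genes passed an adjusted p of 0.05, and 0% of all genes did (lowest adjusted p 0.0845, for H2-L). At an unadjusted p under 0.05, 4 of the 10 were lower in null (Psmb9, Psmb10, Psme1 and Tap2) beside 6.07% of all genes, and none was higher beside 12.4%. Wt replicate 2 is the library labelled TSH. Without it the log2 fold changes were -2.82 for Psmb9, -1.46 for Psmb10, -1.20 for Psme1 and -1.60 for Tap2. That fit holds 1 wt library, so its effect sizes are given here. DESeq2, run as an alternative, called Psmb10 (adjusted p = 0.00587), Psmb9 (adjusted p = 0.00902) and Psme1 (adjusted p = 0.0369) lower. Psmb9 among them passed the low-count filter through wt, and it drops out where 10 counts are required in every library, which leaves 3 of the 8 then tested lower at an unadjusted edgeR p under 0.05, beside 6.61% of all genes. The 3 of 10 that DESeq2 called stand beside 3.71% of all genes with an adjusted p in DESeq2 that were called lower, and 0 of 10 beside 8.48% called higher. Two-sided exact permutation tests of the mean log2(FPKM + 0.1) gave p = 0.1 for Psmb10 and Psme1 and p = 0.2 for Psmb9 and Tap2, where 0.1 is the smallest p that 2 against 3 libraries allow. The median log2 fold change of the 10 genes was -0.99, beside 0.29 over all genes tested, and 9 of the 10 were below that median. Without wt replicate 2 the median of the 10 genes was -0.22. Over the genes tested in all 3 ways, the median of all genes was 0.215 after TMM scaling, 0.131 with DESeq2 and 0.615 on log2(FPKM + 0.1). Relative to the median of all genes in the same fit, the median of the 10 genes was -1.29, -1.30 and -1.71 on the 3 scales, the last without Nlrc5.

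The null lines were also set against the wt libraries singly, on TMM CPM, with a fold of 2 past both wt values as the limit and no replicate check. In null replicate 1, Tap2, Psmb8, Psmb9 and Psmb10 were below it (4 of 10, against 16.9% of all genes) and none was above (24% of all genes). Null replicate 2 had Tap1 below as well (5 of 10, against 18.4%), and none above (22.8%). In null replicate 3, Psmb9, Psmb10 and Psme1 were below (3 of 10, against 15.7%) and none above (24.1%). Psmb9 and Psmb10 were in this class in each null line on TMM CPM. On FPKM, Psmb10 in null replicate 2 was less than 2-fold lower, at 12.9 beside 17.9 in wt replicate 1. Psmb9 passed the filter on low counts through wt, so its place in these counts decides nothing.

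The wt libraries also differed from each other. Wt replicate 2, labelled with TSH, exceeded wt replicate 1 in FPKM for 9 of the 10 genes, all but Nlrc5, beside 35.9% of all genes. On TMM CPM the ratio was 4.19 for Psmb9, 3.30 for Psmb8, 3.05 for Psmb10, 2.10 for Tap1 and 2.05 for Psme1. These 5 of 10 genes were at or above 2-fold, beside 8.21% of all genes, and none was 2-fold lower, beside 9.53%. On FPKM, Psmb8, Psmb9 and Psmb10 passed 2-fold (3 of 10, against 6.18% of all genes), and B2m, Tap2, Tapbp and Erap1 had ratios between 1.25 and 1.68. Each condition is 1 library of 1 line, so TSH and any other difference between the cultures cannot be told apart.

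Partner genes were then compared within each library, where the scaling of libraries cancels. The 3 inducible subunits together made up 2.13% and 6.29% of the summed FPKM of the 6 catalytic subunits in wt replicates 1 and 2. In null replicates 1, 2 and 3 they made up 1.16%, 2.24% and 3.12%. Constitutive subunits thus dominated in every library, and the shares of the groups overlapped. The sum of the inducible subunits was 23.8 and 67.0 FPKM in wt and 8.04, 13.9 and 21.3 FPKM in null, all null sums below both wt sums.

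Psmb9 was at 0.605% and 2.23% of the FPKM of Psmb6 in wt and at 0.0402%, 0.146% and 0.6% in null. The null values were lower, with null replicate 3 almost level with wt replicate 1 (two-sided exact permutation p = 0.2). Psmb10 was at 5.81% and 18.7% of Psmb7 in wt and at 5.54%, 5.47% and 2.98% in null, again all lower but with wt replicate 1 close by (exact permutation p = 0.1). Psmb8 was at 1.01% and 3.36% of Psmb5 in wt and at 0.124%, 0.419% and 9.13% in null. This ratio overlapped (exact permutation p = 0.8), and without null replicate 1 its difference turned from -1.24 to 0.09 on the log2 scale. After Benjamini-Hochberg adjustment over 6 ratios, no p was below 0.4.

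Between the transporter genes, Tap1 was 0.818 and 1.19 times Tap2 in wt and 4.27, 1.66 and 1.11 times in null (exact permutation p = 0.3). Psme1 was 0.615 and 0.913 times Psme2, its partner in the PA28 ring, in wt and 1.14, 1.33 and 0.591 times in null (exact permutation p = 0.6). B2m was 0.809 and 1.36 times the summed FPKM of H2-K1, H2-D1 and H2-L in wt and 1.48, 3.07 and 4.15 times in null. Here all null libraries were higher, null replicate 1 narrowly (exact permutation p = 0.2). Without H2-L, a check added after seeing the data, B2m was 1.02 and 1.72 times H2-K1 plus H2-D1 in wt and 1.48, 3.07 and 4.15 times in null, and the groups overlapped. Tap1 against Psmb9, a pair chosen after the values were seen and not tested, gave 2.46 and 1.23 in wt and 119, 9.47 and 5.92 in null. The 119 of null replicate 1 rests on 3 counts of Psmb9 and has an exact binomial 95% interval of 40.5 to 576, which covers counting error only. It does not cover the spread between lines.

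**Figure D3:**
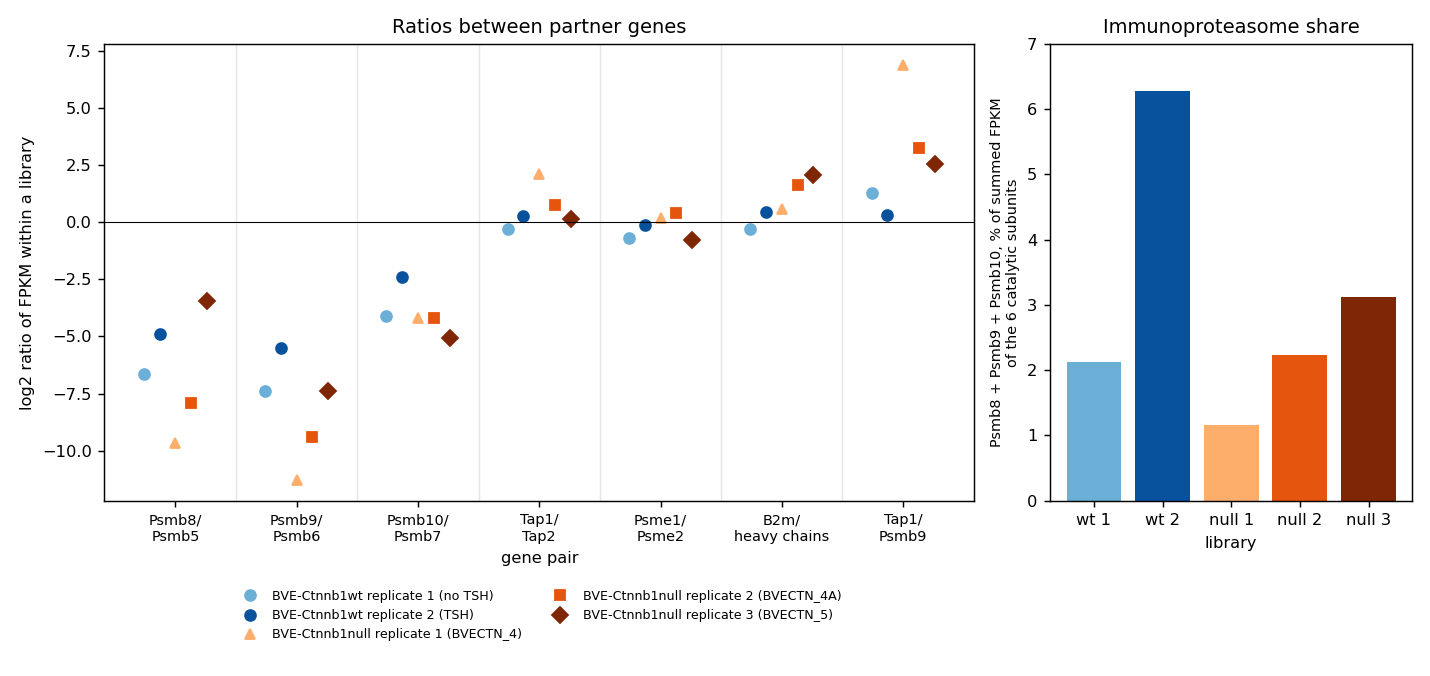
Left, log2 ratio of FPKM within each library for 7 gene pairs, 1 point per library; right, Psmb8, Psmb9 and Psmb10 as a percent of the summed FPKM of the 6 catalytic subunits. Null replicate 1 has the lowest Psmb8/Psmb5 and Psmb9/Psmb6 and the highest Tap1/Psmb9, and wt replicate 2 has the highest inducible share, 6.29%.

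The constitutive catalytic subunits had log2 fold changes below 0 on all 3 scales, with a median of -1.24 beside -0.99 for the 10 genes. Psmb6 was at 494 and 492 FPKM in wt and at 324, 206 and 245 FPKM in null (log2 fold change -1.50, edgeR adjusted p = 0.192). Psmb5 had a log2 fold change of -1.24 and Psmb7 one of -0.93. At an unadjusted edgeR p under 0.05, 2 of the 3 were lower in null and 0 higher, beside 6.07% and 12.4% of all genes. DESeq2 called Psmb6 lower (adjusted p = 0.0179), beside 3.71% of all genes called lower. Among 11 other 20S subunits, 5 had such a p, all lower in null, led by Psma7 (-1.59) and Psma6 (-1.56), and 0 were higher, beside 6.07% and 12.4% of all genes. All 11 were below 0 after TMM scaling (median -0.85), beside 40.7% of all genes. On log2(FPKM + 0.1), 8 were below 0, and all 11 were below the median of all genes in that fit, 0.611. DESeq2 called Psma6 (adjusted p = 0.0283), Psma7 (adjusted p = 0.0324) and Psmb3 (adjusted p = 0.014) lower, again beside 3.71% of all genes.

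Of the other activator genes, Psme2 (PA28β) was at 182 and 219 FPKM in wt and at 74.5, 65.0 and 77.6 FPKM in null. All null values were below both wt values (log2 fold change -2.07, SE 0.40, adjusted p = 0.18 in edgeR and 0.000138 in DESeq2). Psme4, an activator known from the nucleus, went the other way, at 1.80 and 1.53 FPKM in wt and 7.39, 20.2 and 10.8 FPKM in null (log2 fold change 2.34, SE 0.57, adjusted p = 0.186 in edgeR and 0.00418 in DESeq2). Psme3 had a log2 fold change of -0.16, or 0.48 on log2(FPKM + 0.1).

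The classical heavy chains, which B2m joins, were below 0 on all 3 scales (median log2 fold change -1.84). H2-D1 was at 405 and 355 FPKM in wt and at 172, 103 and 199 FPKM in null, with no overlap (log2 fold change -1.84, adjusted p = 0.186 in edgeR and 0.00519 in DESeq2). H2-K1 was at 157 and 165 FPKM in wt and at 161, 78.7 and 88.9 FPKM in null, with null replicate 1 inside the wt range. On TMM CPM it did not overlap, at 312 and 377 in wt and 248, 108 and 122 in null. H2-L, a heavy chain gene that only some mouse haplotypes carry, was at 146 and 138 FPKM in wt and at 0, 0.06 and 0 FPKM in null (adjusted p = 0.0845 in edgeR and 8.08e-26 in DESeq2). Psmb8, Psmb9, Tap1, Tap2 and Tapbp lie on chromosome 17 in the same complex as these genes, and whether the lines carry different haplotypes there was not tested. The heavy chains are close copies of each other, so the split of reads between them is uncertain.

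Other loading and quality control genes had log2 fold changes on both sides of 0 after TMM scaling, between -0.67 and 0.70. Of 7, none had an unadjusted edgeR p under 0.05 in either direction (median log2 fold change 0.28, beside 0.29 over all genes). On FPKM, 4 of the 7 were above both wt libraries in every null library and 0 below, beside 35.9% and 7.22% of all genes. On log2(FPKM + 0.1), 6 of the 7 were above 0 (median 0.674, beside 0.611 over all genes). Calr, the calreticulin of the loading complex and the most abundant, was at 739 and 1581 FPKM in wt and at 1021, 815 and 1528 FPKM in null. Tapbpl, a tapasin relative, had a log2 fold change of -0.55, while Canx was at 0.70 and Hspa5 at 0.52. Hspa5, an endoplasmic reticulum chaperone, was at 1238 FPKM in null replicate 3 and at 285 FPKM or lower elsewhere. Among 8 cytosolic and endoplasmic reticulum peptidases, 1 was higher at an unadjusted edgeR p under 0.05 and 0 lower, beside 12.4% and 6.07% of all genes. It was Lnpep, a relative of Erap1 that trims peptides in endosomes, at 0.25 and 0.23 FPKM in wt and 0.84, 2.69 and 1.70 FPKM in null (log2 fold change 2.24, adjusted p = 0.222 in edgeR and 0.0345 in DESeq2). Tpp2 had a log2 fold change of 1.36, Thop1 of -1.25 and Lap3 of -0.64.

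Of 12 IRF, STAT and NF-κB genes, 2 were higher and 1 lower in null at an unadjusted edgeR p under 0.05, near the shares of all genes (12.4% and 6.07%). None passed the adjusted threshold in edgeR, and DESeq2 called these 3, Irf1 (adjusted p = 0.0136) lower and Irf2 (adjusted p = 0.0151) and Irf8 (adjusted p = 0.0201) higher. Of all genes, DESeq2 called 3.71% lower and 8.48% higher. Irf1, an interferon-induced activator of class I genes, was at 35.6 and 53.5 FPKM in wt and at 19.7, 8.15 and 19.6 FPKM in null. All null values lay below wt (log2 fold change -2.08, SE 0.56, adjusted p = 0.191 in edgeR). Irf2, which binds the same element, was at 2.09 and 1.87 FPKM in wt and at 9.83, 8.84 and 8.99 FPKM in null, the null libraries tightly together above wt (log2 fold change 1.64, adjusted p = 0.201 in edgeR). Irf8 was at 0.35 and 0.44 FPKM in wt and at 19.9, 2.85 and 1.26 FPKM in null (log2 fold change 3.81, adjusted p = 0.231 in edgeR). Irf7 had a log2 fold change of -0.90.

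Nlrc5 acts with RFX and NF-Y proteins on the X and Y boxes of class I promoters. Of 8 genes of this group and its class II relatives, 7 were tested and none had an unadjusted edgeR p under 0.05. Creb1 had a log2 fold change of 1.01, Rfx5 of 0.74 and Rfxank of -0.45. Ciita, the class II counterpart of Nlrc5, was at 0.01 FPKM in null replicate 2 and at 0 elsewhere. Nlrc5 itself stayed at or under 0.10 FPKM in all libraries, whereas B2m was at 493 FPKM or higher in each.

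**Figure D4:**
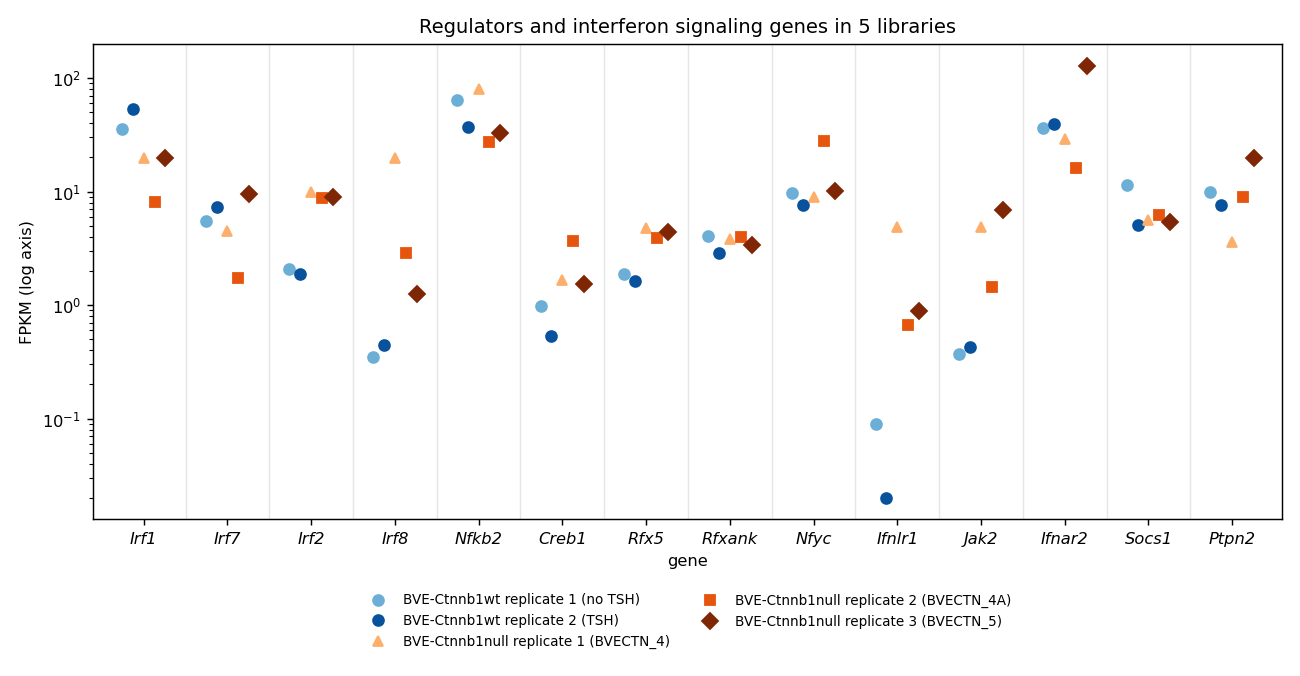
FPKM (log axis) of 14 regulator and interferon signaling genes in each library, 1 point per library, circles wt and other symbols null. Irf1 lies lower, and Irf2, Irf8, Creb1, Rfx5, Ifnlr1 and Jak2 higher, in all null libraries than in both wt libraries. Among all genes tested, 7.22% lie lower and 35.9% higher in this way.

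Of 10 interferon receptor and JAK pathway genes, 3 were higher in null at an unadjusted edgeR p under 0.05 and 0 were lower, beside 12.4% and 6.07% of all genes. None passed the adjusted threshold in edgeR, and DESeq2 called Ifnlr1 (adjusted p = 0.00315) and Jak2 (adjusted p = 0.00995) higher, beside 8.48% of all genes called higher. Ifnlr1, also among the 3, had 11 and 2 counts in wt and 589, 80 and 105 in null. It thus passed the filter on low counts through null, the group in which it was higher. Jak2, a kinase of the interferon-γ receptor, was at 0.37 and 0.43 FPKM in wt and at 4.91, 1.44 and 6.85 FPKM in null (log2 fold change 2.88, adjusted p = 0.194 in edgeR). Jak1, a kinase of every interferon receptor, had a log2 fold change of 1.504, and Ifnlr1, the interferon-λ receptor, one of 4.87 from 0.09 FPKM or lower in wt. Socs1, an inhibitor of JAK kinases, had a log2 fold change of -1.07 and Ptpn2, a phosphatase of the pathway, of -0.29. The 4 interferon genes examined were nearly absent. Ifnb1 and Ifnl3 were at 0 in all libraries, Ifng at 0.06 FPKM in null replicate 3 alone and Ifnl2 at 0.12 FPKM in null replicate 1 alone. Other interferon genes were not examined.

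Genes with the profile most like Tap1 were sought by the mean absolute difference in log2(TMM CPM + 1), centred over the 5 libraries, among 10736 genes. The nearest was Parp10, at 5.56 and 7.73 FPKM in wt and 10.7, 1.86 and 7.05 FPKM in null (mean difference 0.132). Eepd1 (0.168), Aldh3b1 (0.185), Prdx5 (0.192) and B3galt4 (0.215) came next, each with its highest FPKM in null replicate 1 and lowest in null replicate 2, as for Tap1. Tapbp ranked 199, Tap2 ranked 1113 and B2m ranked 2207. Psmb9, the neighbor of Tap1, ranked 4257, and Psmb8 ranked 5866. With 5 libraries these ranks are a description only.

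In the annotation, B2m overlaps Patl2, Erap1 overlaps Cast, Psme1 overlaps Emc9, Tapbp overlaps Gm19412 and Nlrc5 overlaps 3 genes. Strand use in counting is not given in the sources used here, so reads of such pairs cannot be told apart. Psmb8, Psmb9, Psmb10, Tap1 and Tap2 overlap no other gene.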

How the data were processed

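RNA of 5 mouse cell line libraries (TruSeq RNA kit) was sequenced. For each RefSeq transcript the authors deposited an estimated count and an FPKM value. The aligner, counting program and genome build are not given in the sources used here. Transcripts were added up by NCBI gene number, estimated counts were then rounded, and an unlisted gene was set to 0. Of 17923 genes, 17866 matched a symbol in the RefSeq table of GRCm38.p6. Groups followed the sample labels. The main test was edgeR 4.0.16 in R 4.3.3 (TMM, filterByExpr, quasi-likelihood F-test) on 13240 genes, p-values being Benjamini-Hochberg adjusted. Alternatives were DESeq2 1.42.0, no filter, a filter of 10 counts in each library, limma 3.58.1 on log2 of FPKM plus 0.1 or 1 (FPKM of at least 0.5 in 2 libraries, or no filter), leaving out each library, a replicate block, and the wt libraries summed. Simulated data with 200 altered genes were used to check that the tools ran. Their noise was set lower than that of these data (biological coefficient of variation 0.694), so they do not show how the tools perform here. Single values were compared with two-sided exact permutation tests (numpy 2.4.6 in Python 3.11.15). The text names each of the 10 genes, Ctnnb1, up to 2 genes per direction of each list by fold change (group mean of 1 FPKM or more) with the most abundant genes and those at 0, and the 5 genes nearest Tap1. Other genes are values beside a count. The members and lists were chosen with earlier results of these data known. P-values measure the spread between these libraries. Intervals cover counting error only.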

Additional observations from a re-analysis of the deposited data

How the results depend on the processing

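No gene passed the adjusted threshold in either direction in edgeR with the filter of the report and all 5 libraries. DESeq2 called 1113 genes higher and 487 lower, 3 of the 10 class I processing genes among the latter. Limma called 1 gene higher with either pseudocount, and 5 lower with 0.1 and 7 with 1 added to FPKM, but 0 in either direction with 0.1 added and no FPKM filter. EdgeR called 4 genes lower with no filter on low counts and 1 when every library had to hold 10 counts, and none when any library was left out. The cause of these differences was not tested.

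The median log2 fold change of the 10 genes, -0.99, ranged from -1.58 to -0.22 when a library was left out, the latter without wt replicate 2. Tapbp turned from -0.01 to 0.02 under the latter filter, to 0.44 in limma with 0.1 added (with or without the FPKM filter), to 0.43 with 1 added, and ranged from -0.49 to 0.45 without a library (0.45 without wt replicate 2, 0.29 without null replicate 2). Erap1 turned from -0.36 to 0.23 in limma with 0.1 added, with or without the filter, to 0.17 with 1 added, and ranged from -0.79 to 0.022 without a library, the latter without wt replicate 2. The Psmb8/Psmb5 difference ranged from -3.01 to 0.088, the latter without null replicate 1. Psmb9/Psmb6 ranged from -3.92 to -1.97, Psmb10/Psmb7 from -2.06 to -0.37 and Tap1/Tap2 from 0.46 to 1.43. Psme1/Psme2 ranged from 0.08 to 0.72, and B2m over the 3 heavy chains from 0.97 to 1.77. With each library left out in turn, Psmb9 was between -5.65 and -2.82, Psmb10 between -3.05 and -1.46, Psme1 between -2.22 and -1.20 and Tap2 between -2.53 and -1.50, and Psmb8 ranged from -4.22 to -0.16, B2m from -1.11 to -0.19 and Tap1 from -1.56 to -0.25. Over all alternatives Psmb9 reached -2.17, Psme1 -1.09 and Tap2 -1.21 (limma with 1 added) and B2m -0.05 (limma). Without a wt library, the other is assumed to vary like the null libraries. Added after seeing the data, the count of the 10 genes with all null FPKM below wt was 4 with each library left out (9.94% to 12.8% of all genes) except null replicate 3, which gave 6 (B2m and Psmb8 joined, beside 11.4% of all genes). On TMM CPM it was 8 without wt replicate 1, 5 without null replicate 1 and 6 without null replicate 3, beside 23.7%, 26.8% and 23.5% of all genes. The count lower at an unadjusted edgeR p under 0.05, 4 with all libraries (6.07% of all genes), was 0 without wt replicate 2 (2.02%), 5 without null replicate 3 (6.95%) and 3 or 4 without any other library (2.52% to 11.5%), and limma gave 2 (2.31% to 2.83%).

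Replicate numbers 1 and 2 occur in both groups, but same-numbered libraries did not deviate together (correlations -0.0882 and -0.0884 across genes). Deviations were taken from group means, so those of the wt libraries mirror each other. These correlations are thus not independent and cannot decide whether the libraries were paired. With the replicate block the median of the 10 genes was -1.25, Psmb8 was at -4.07 and Psmb9 at -5.41, and no gene passed the adjusted threshold. Nlrc5 had no value in limma with the FPKM filter, and Nlrc5 and Psmb9 had none where 10 counts were required everywhere. The adjusted p of Psmb9 ranged from 0.00902 and that of Psmb10 from 0.00587 (both in DESeq2) to 0.85 over the alternatives. Depth limits Psmb9 (3 counts in null replicate 1) and Nlrc5 (20 counts or fewer). Both passed the filter on low counts through the group in which they were higher, so their places in the counts of genes above decide nothing.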
